A study of Mus musculus with 12 samples.

Results

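Interferon-stimulated genes and genes of MHC class I antigen processing were followed by RNA-seq in a pair of MEF-derived lines, which descend from mouse embryonic fibroblasts. The set was given as 36 gene symbols, and 35 of them had a row among the 37310 genes of the deposited table. Psmb9, an immunoproteasome subunit, was not matched to a row and is not analysed here. After the filter on low counts, 32 members were tested among 16630 genes. Oas1a, Trim25 and Psmb8 did not pass the filter.

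Per the labels, the lines were an HP1γ/CBX3 knockout (HP1g -/-, called KO here) and cells in which HP1γ had been put back (HPg). HP1γ, encoded by Cbx3, is a chromatin protein that binds methylated histone H3. Each line was grown untreated or given 100 nM of the phorbol ester PMA, dissolved in DMSO, for 30 min. The 4 groups were KO with PMA, HPg with PMA, KO and HPg, with 3 libraries each. The vehicle of the untreated cells, the construct that restored HP1γ and the origin of the clones are not stated in the labels. The HPg cells carry a re-expressed gene and are not wild type. There was 1 line per genotype, so line and genotype cannot be told apart, and p-values measure the spread between cultures.

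Type I interferons act through the receptor chains IFNAR1 and IFNAR2, Janus kinases and a transcription factor complex that contains IRF9. This complex binds the interferon-stimulated response element (ISRE) in the promoters of its targets. Their products sense viral RNA, block its translation or mark viral proteins with ISG15. Another branch loads peptides onto MHC class I: the proteasome cuts them, the TAP1 and TAP2 transporter carries them, tapasin loads them, and NLRC5 drives transcription of these genes. Fibroblasts are known to respond strongly to type I interferon, and many keep a low level of these genes without infection. PMA activates protein kinase C.

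The promoter windows of the members that differed between the lines are shown because several hold the ISRE and several do not. The windows run from 250 bases before to 50 bases after the start site and come from RefSeq (build GRCm38.p6). The table of windows matched 28 of the 36 symbols. The motif searched was the run GAAA, any 2 letters and GAAA again, on either strand, and its matches are in capitals. Of the 9 members called in the comparison of lines described further on, 6 had a window, and these 6 are printed 5′ to 3′ on the strand of the gene.
Ifih1: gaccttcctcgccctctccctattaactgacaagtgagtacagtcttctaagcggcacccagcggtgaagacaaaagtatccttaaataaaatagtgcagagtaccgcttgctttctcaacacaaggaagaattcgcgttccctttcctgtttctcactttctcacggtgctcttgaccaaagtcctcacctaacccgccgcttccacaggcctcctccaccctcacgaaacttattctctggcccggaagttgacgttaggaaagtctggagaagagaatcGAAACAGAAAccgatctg
Ifit1bl2: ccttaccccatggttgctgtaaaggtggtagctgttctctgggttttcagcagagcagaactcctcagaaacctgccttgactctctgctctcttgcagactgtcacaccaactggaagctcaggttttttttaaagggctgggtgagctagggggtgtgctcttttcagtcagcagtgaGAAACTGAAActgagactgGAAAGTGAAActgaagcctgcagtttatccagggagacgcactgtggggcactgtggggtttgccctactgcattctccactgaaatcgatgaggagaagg
Rsad2: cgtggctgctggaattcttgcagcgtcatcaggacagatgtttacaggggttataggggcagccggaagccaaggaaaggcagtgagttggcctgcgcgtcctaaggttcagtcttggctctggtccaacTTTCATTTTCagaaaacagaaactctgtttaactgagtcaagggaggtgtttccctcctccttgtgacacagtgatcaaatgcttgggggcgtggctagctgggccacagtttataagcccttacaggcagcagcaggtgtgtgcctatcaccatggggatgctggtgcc
Cmpk2: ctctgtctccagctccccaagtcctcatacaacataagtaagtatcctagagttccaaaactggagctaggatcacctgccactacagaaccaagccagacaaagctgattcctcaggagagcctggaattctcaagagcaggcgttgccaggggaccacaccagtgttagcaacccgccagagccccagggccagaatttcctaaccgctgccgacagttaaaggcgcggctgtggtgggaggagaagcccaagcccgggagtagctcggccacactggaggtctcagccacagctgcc
Isg15: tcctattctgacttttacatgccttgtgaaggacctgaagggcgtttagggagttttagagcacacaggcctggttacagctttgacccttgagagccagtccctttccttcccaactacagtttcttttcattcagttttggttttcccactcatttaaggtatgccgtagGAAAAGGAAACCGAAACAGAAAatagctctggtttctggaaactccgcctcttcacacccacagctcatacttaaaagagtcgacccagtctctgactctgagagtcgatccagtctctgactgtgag
Tap1: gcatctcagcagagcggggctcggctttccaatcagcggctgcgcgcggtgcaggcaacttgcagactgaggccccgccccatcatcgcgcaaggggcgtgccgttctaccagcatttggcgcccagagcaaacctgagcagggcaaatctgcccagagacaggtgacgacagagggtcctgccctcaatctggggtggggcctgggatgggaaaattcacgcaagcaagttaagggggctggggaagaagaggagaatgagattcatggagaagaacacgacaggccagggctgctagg
The windows lie on the minus strand at chr2:62646206-62646505 for Ifih1, chr19:34640694-34640993 for Ifit1bl2, chr12:26456403-26456702 for Rsad2 and chr4:156200769-156201068 for Isg15. They lie on the plus strand at chr12:26468965-26469264 for Cmpk2 and chr17:34187306-34187605 for Tap1. Isg15 held 3 matches whose first bases lay 78, 72 and 66 bases before the start site, so that they overlapped each other. Ifit1bl2 held 2 matches, and the window shared 245 bases with that of Ifit1, which runs the other way and holds the same 2 matches. A second window listed for Ifit1bl2, at chr19:34629762-34630061 on the minus strand, held none. The single match in Rsad2 began 120 bases before the start site, on the opposite strand. In Ifih1 the match began 32 bases after the start site. These letters did not occur in the windows of Cmpk2 and Tap1. The window of Tap1 shared 275 bases with that of Psmb9, which is transcribed the other way.

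Of the 28 members with a window, 14 (50%) held the ISRE letters, against 3.99% of 27025 genes with a window. A gene with more than 1 window was counted when any of them held the letters. Among the tested members, 24 had a window and 13 of these held the ISRE letters. The letters were in 4 of the 6 called members with a window and in 9 of the 18 that were not called. A match is a run of letters and was not tested for binding.

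**Figure D1:**
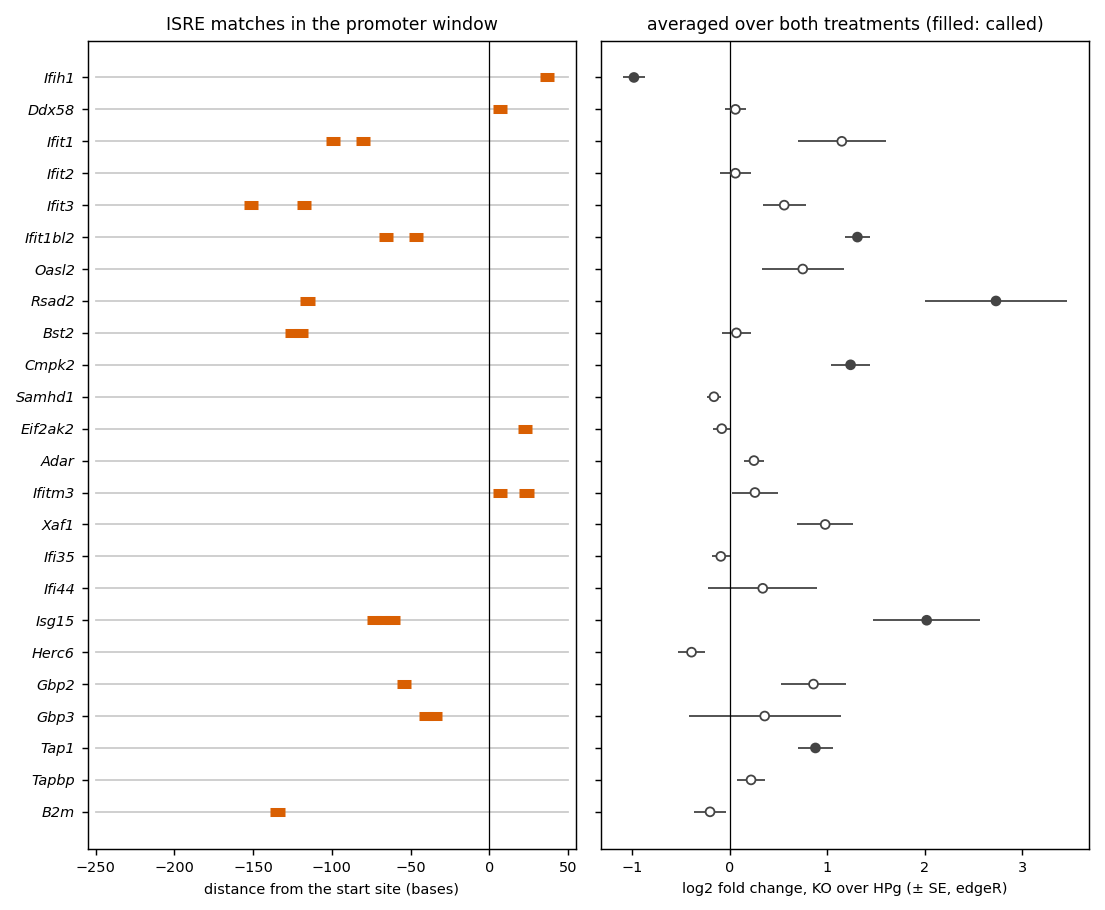
The left panel places ISRE matches (bars) by their distance in bases from the start site in the windows of 24 tested members, and the right panel gives the log2 fold change of KO over HPg, averaged over both treatments, with its SE. Filled points mark members called at an adjusted p below 0.05: Rsad2 and Isg15 lie farthest right, both with matches, Ifih1 farthest left, also with a match, while Cmpk2 and Tap1 were called without one.

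Total counts were 111458145 to 159929347 per library. The HPg library 2 had fewer genes with a count (17822) than the others (19759 to 20656), and results without the second libraries are given below. Cbx3 had 31.8 ± 4.37 CPM in KO with PMA, 38.6 ± 4.66 CPM in HPg with PMA, 36.5 ± 2.2 CPM in KO and 38.7 ± 2.45 CPM in HPg (SD, n = 3 each). CPM are counts scaled to library size with TMM factors. Between KO and HPg, averaged over both treatments, the log2 fold change of Cbx3 was -0.18 (SE 0.091, edgeR adjusted p = 0.232, and 0.0977 with replicate number as a block). Transcripts of a gene can be counted outside a disrupted part, so this value does not check the genotype, and KO stands for the cells labelled as knockout. Fibroblast markers summed to 12600–16900 CPM in KO with PMA, 10600–16500 in HPg with PMA, 12400–18500 in KO and 11200–18900 in HPg. Thy1, a fibroblast surface marker, was below 10 counts in every library.

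Levels per kilobase differed widely among the members. B2m, the light chain of MHC class I, had a mean of 142 RPKM over the 12 libraries. Ifitm3, a membrane protein that hinders viral entry, had 40 RPKM, and Tapbp, which encodes tapasin, had 30.1 RPKM. Ifit2, an inhibitor of translation, had 15.6 RPKM, and the RNA-activated kinase Eif2ak2 (PKR) had 9.99 RPKM. Among other interferon targets, Ifit3 had 7.82 RPKM, Ifih1 5.89 and Ddx58 3.61. Lower levels were seen for Isg15 (0.154 RPKM), Mx1 (0.0561), Rsad2 (0.0185) and Ifi44 (0.0167). RPKM here used exon lengths of GENCODE M21.

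The messages of the interferons that could be measured were close to absent. The list of interferons and receptors held 26 symbols, of which 17 had a row, and the others were not measured. Of 11 interferon genes with a row, Ifnb1, Ifna2, Ifna4, Ifna12, Ifna16, Ifng, Ifnl2 and Ifnl3 had 0 counts in all 12 libraries. For each of these 8 the count of 0 allows a level of up to 0.00193 CPM over the pooled libraries (3 counts, counting error only). Ifna13 had 2 counts in all, and Ifne and Ifnk had 4 each. The receptor chain Ifnar1 had 95404 counts over the 12 libraries and Ifnar2 had 37271.

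The first question was whether the lines differed, whatever the treatment. Averaged over both treatments, 9 of 32 members were called between KO and HPg by edgeR at an adjusted p below 0.05, against 10.4% of all genes tested. The 8 that were higher in KO were the effectors Ifit1bl2, Mx1, Rsad2 and Cmpk2, the ubiquitin-like modifier Isg15, the ADP-ribosyltransferases Parp9 and Parp14, and the peptide transporter Tap1 (background 5.57% higher). Ifih1, which encodes the RNA sensor MDA5, was the 1 that was lower (background 4.85%). Over all genes 926 were called higher and 807 lower with TMM scaling, against 1159 higher and 563 lower with upper-quartile scaling. The median log2 fold change was 0.62 over the 32 members and 0.01 over all genes, and 26 of 32 members were positive, against 50.7% of all genes. The members were chosen with earlier results of these data known. Here and in the comparisons below, an excess over all genes describes the set and is not independent evidence. Libraries of a number deviated together across groups, and with replicate number as a block 17 members were called, against 29.3% of all genes: 15 were higher (background 15.2%) and 2 lower (14.1%). DESeq2 called 13 members, against 15.8% of all genes. KO libraries lay wholly above HPg libraries, treated and untreated alike, for 5 members (background 3.01%) and wholly below for 1 (2.12%), which makes 6 that did not overlap, against 5.13% of all genes. The average treats the 2 treatments of a line as separate samples, and same-numbered cultures may not be independent.

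**Figure D2:**
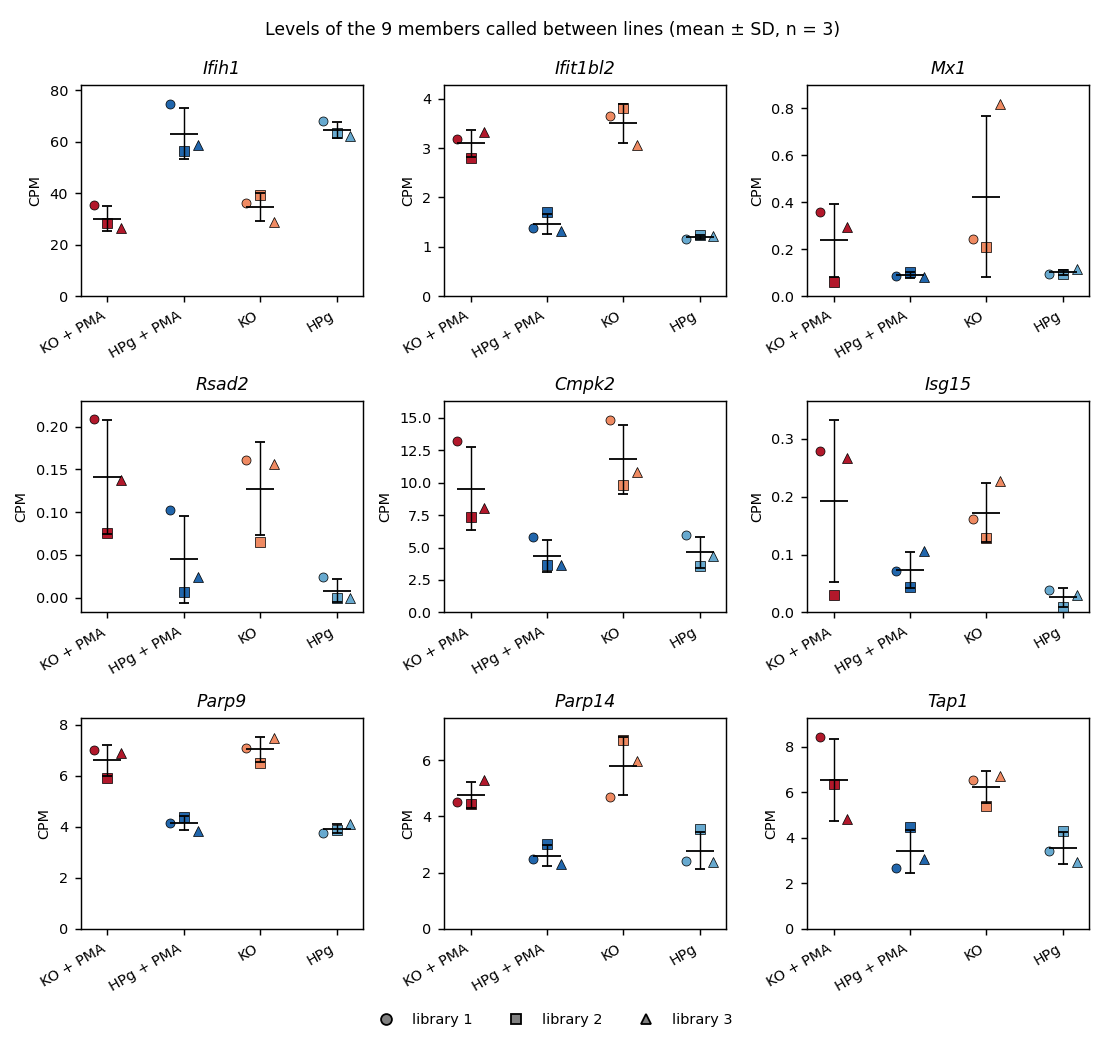
Each panel gives 1 of the 9 called members, with CPM on a linear axis for KO with PMA, HPg with PMA, KO and HPg; markers are libraries 1 to 3, and the bar is the mean ± SD (n = 3). Ifih1 is lower and Ifit1bl2, Cmpk2, Parp9, Parp14 and Tap1 are higher in all 6 KO libraries than in any HPg library, whereas the KO library 2 with PMA lies below the HPg libraries with PMA for Mx1 and Isg15.

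Among the 3 RNA sensors tested, Ifih1 was the 1 called by the averaged edgeR test, lower in KO (background 4.85%). MDA5 recognises long double-stranded RNA. Ifih1 had 35.4, 28.5 and 26.3 CPM in KO with PMA, against 74.6, 56.2 and 58.7 CPM in HPg with PMA. It had 36.3, 39.2 and 28.6 CPM in KO, against 68, 63.3 and 62.2 CPM in HPg. Every KO library lay below every HPg library, with and without PMA. The log2 fold change averaged over both treatments was -0.98 (SE 0.11, edgeR adjusted p = 0.000351), and the call held without each of the 12 libraries in turn. The median over tested genes of chromosome 2, which holds Ifih1, was -0.15. Ddx58, which encodes the sensor RIG-I for short RNA with a 5′ triphosphate, had 25.5 ± 3.2 CPM in KO with PMA, 24.2 ± 3.56 in HPg with PMA, 26.5 ± 2.28 in KO and 25.7 ± 4.53 in HPg (SD, n = 3 each). Its averaged log2 fold change was 0.06 (SE 0.11, edgeR adjusted p = 0.786), so the difference from HPg was within the spread of the libraries. Dhx58, which encodes the regulator LGP2, stayed below 1 CPM in every library, with an averaged log2 fold change of 0.2 (SE 0.19, edgeR adjusted p = 0.579).

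The antiviral effectors were the largest role, with 17 members tested, of which 4 were called higher in KO (background 5.57%) and none lower (4.85%) by the averaged edgeR test. Ifit1bl2, a relative of Ifit1, had 3.18, 2.79 and 3.32 CPM in KO with PMA, against 1.38, 1.7 and 1.31 CPM in HPg with PMA. The values were 3.65, 3.81 and 3.06 CPM in KO, against 1.16, 1.23 and 1.22 CPM in HPg. KO and HPg libraries did not overlap, and the HPg libraries lay close together. Its averaged log2 fold change was 1.31 (SE 0.13, edgeR adjusted p = 0.000194), and the call held without each library in turn.

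Cmpk2, a mitochondrial nucleotide kinase induced with Rsad2, had 13.2, 7.39 and 8.05 CPM in KO with PMA, against 5.8, 3.62 and 3.67 CPM in HPg with PMA. It had 14.8, 9.79 and 10.8 CPM in KO, against 5.95, 3.61 and 4.34 CPM in HPg. Library 1 was the highest in all 4 groups, and each KO library exceeded every HPg library. For Cmpk2 the averaged log2 fold change was 1.24 (SE 0.2, edgeR adjusted p = 0.00302). Same-numbered libraries gave log2 ratios of KO over HPg between 1.03 and 1.44 in all 6 pairs. The median over tested genes of chromosome 12, which holds Cmpk2 and Rsad2, was 0.2.

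Rsad2, which encodes viperin, an enzyme that makes a chain-terminating nucleotide, was counted in few reads. It had 24, 10 and 15 counts in KO with PMA, against 16, 1 and 3 counts in HPg with PMA. There were 18, 9 and 22 counts in KO, against 3, 0 and 0 counts in HPg. Without PMA every KO library was above every HPg library, and with PMA the groups overlapped. The ratio of summed counts, each divided by the group's TMM-scaled library size, was 2.99 (95% exact interval 1.75–5.31, counting error only) with PMA and 15.8 (5.08–79) without. Averaged, the log2 fold change was 2.73 (SE 0.73, edgeR adjusted p = 0.0349), a call lost without 6 of the 12 libraries, namely KO 1 and 3, KO with PMA 1 and 3, HPg 3 and HPg with PMA 3, with adjusted p of up to 0.0875. Leaving out single libraries moved its log2 fold change between 2.45 and 4.33.

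Mx1, a dynamin-like GTPase, had 0.358, 0.0603 and 0.294 CPM in KO with PMA, against 0.0841, 0.102 and 0.0816 CPM in HPg with PMA. It had 0.242, 0.208 and 0.818 CPM in KO, against 0.0948, 0.0922 and 0.114 CPM in HPg. The KO library 2 with PMA was the lowest of all 12 and the KO library 3 the highest. For Mx1 the averaged log2 fold change was 1.73 (SE 0.47, edgeR adjusted p = 0.0374). Without 8 of the 12 libraries, which were KO 3, KO with PMA 1 and 3, HPg 1 and 3 and the 3 HPg libraries with PMA, the call was lost, with an adjusted p of up to 0.114. Mx2, its paralog, had 0.237 ± 0.0862 CPM in KO with PMA, 0.214 ± 0.0431 in HPg with PMA, 0.742 ± 0.458 in KO and 0.256 ± 0.0617 in HPg (SD, n = 3 each), with an averaged edgeR adjusted p of 0.137.

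Members of the Ifit family, which bind foreign RNA and block its translation, differed in how far they separated the lines. Ifit1 had 2.77, 1.14 and 3.25 CPM in KO with PMA, against 2.1, 0.806 and 1.26 CPM in HPg with PMA. The levels were 2.02, 0.969 and 4.58 CPM in KO, against 1.11, 0.268 and 1.26 CPM in HPg. The lines overlapped, yet KO exceeded HPg in all 6 same-numbered pairs, with log2 ratios of 0.4 to 1.86. The averaged log2 fold change of Ifit1 was 1.15 (SE 0.45, edgeR adjusted p = 0.13, and 0.00198 with the replicate block). Ifit3 had an averaged log2 fold change of 0.56 (SE 0.22, edgeR adjusted p = 0.12, and 0.000374 with the block), with all 6 pairs positive. Ifit2 had 63.3 ± 18.8 CPM in KO with PMA, 67.8 ± 15.8 in HPg with PMA, 61 ± 8.44 in KO and 52.4 ± 9.75 in HPg (SD, n = 3 each), and its averaged log2 fold change was 0.06 (edgeR adjusted p = 0.862). Reads of Ifit1, Ifit3 and Ifit1bl2 could be divided with near-identical relatives such as Ifit3b, so the level of each is uncertain.

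Xaf1, a proapoptotic zinc finger protein, had 2.03, 2.34 and 1.34 CPM in KO with PMA, against 1.07, 1.72 and 0.62 CPM in HPg with PMA. It had 1.94, 2.95 and 2.7 CPM in KO, against 0.75, 1.74 and 0.797 CPM in HPg. KO was above HPg in each of the 6 pairs, and only the groups without PMA did not overlap. The averaged log2 fold change was 0.98 (SE 0.29), with an edgeR adjusted p of 0.0511 and 0.00117 with the block. Adar, which edits adenosines in double-stranded RNA, had a smaller difference of 0.25 on the log2 scale (SE 0.099, edgeR adjusted p = 0.131, and 0.00919 with the block). Its exons share 16.8% of their length with a gene on the other strand.

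The other 9 effectors tested, Ifit2 among them, did not pass the averaged edgeR test with or without the block. The dNTPase Samhd1 had 49 ± 1.66 CPM in KO with PMA, 53.6 ± 2.99 in HPg with PMA, 53.3 ± 4.1 in KO and 60.6 ± 3.36 in HPg, a log2 fold change of -0.16 (SE 0.071, edgeR adjusted p = 0.178), and it was lower in KO in all 6 pairs. Averaged log2 fold changes were -0.08 for Eif2ak2, -0.09 for the scaffold protein Ifi35, 0.07 for the tether Bst2 and 0.26 for Ifitm3. They were 0.34 for Ifi44, 0.75 for Oasl2, a protein of the oligoadenylate synthetase family, and 0.84 for Mx2. Oas1a, an oligoadenylate synthetase, had 0 to 17 counts per library and was not tested.

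In the ISG15 system, 1 of 3 members tested, Isg15, was called higher in KO by the averaged edgeR test (background 5.57%). It had 0.279, 0.0301 and 0.267 CPM in KO with PMA, against 0.0711, 0.0444 and 0.106 CPM in HPg with PMA. Without PMA it had 0.161, 0.129 and 0.228 CPM in KO, against 0.0395, 0.00839 and 0.0304 CPM in HPg. The KO library 2 with PMA lay below all 3 HPg libraries with PMA, while without PMA the groups did not overlap. These levels rest on 65 counts in KO with PMA, 31 in HPg with PMA, 68 in KO and 10 in HPg. Isg15 had an averaged log2 fold change of 2.02 (SE 0.55, edgeR adjusted p = 0.0351), a call that held without KO 2, KO with PMA 2 or HPg 2 and was lost without any of the other 9 libraries, with adjusted p of up to 0.0875. Usp18, which removes ISG15 and dampens receptor signalling, had an averaged log2 fold change of 0.71 (SE 0.37, edgeR adjusted p = 0.255). Herc6, a ligase for ISG15 in mouse, had 4.76 ± 0.189 CPM in KO with PMA, 7.01 ± 0.767 in HPg with PMA, 5.68 ± 0.965 in KO and 6.62 ± 1.51 in HPg. It was lower in KO in all 6 pairs, with an averaged log2 fold change of -0.39 (SE 0.14, edgeR adjusted p = 0.0862, and 0.0237 with the block). Its exons share 13.7% of their length with a gene on the same strand. Trim25, a ubiquitin ligase that acts on RIG-I, had 0 to 3 counts per library and was not tested.

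Parp9 and Parp14, the 2 members of the ADP-ribosyltransferase family, were both called higher in KO by the averaged edgeR test (background 5.57%). Parp9 is known to work with the ubiquitin ligase Dtx3l, and Parp14 is a mono-ADP-ribosyltransferase with macrodomains. Parp9 had 7.01, 5.9 and 6.89 CPM in KO with PMA, against 4.16, 4.38 and 3.84 CPM in HPg with PMA. It had 7.09, 6.51 and 7.48 CPM in KO, against 3.77, 3.87 and 4.12 CPM in HPg. No HPg library reached a KO library, and the spread within groups was small. Parp9 had an averaged log2 fold change of 0.76 (SE 0.1, edgeR adjusted p = 9e-04). Parp9 shares 9.4% of its exon length with Dtx3l on the other strand, and Dtx3l had a log2 fold change of 0.66 (edgeR adjusted p = 0.0154).

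Parp14 had 4.52, 4.45 and 5.3 CPM in KO with PMA, against 2.49, 3.02 and 2.31 CPM in HPg with PMA. The levels were 4.68, 6.73 and 5.99 CPM in KO, against 2.43, 3.54 and 2.36 CPM in HPg. Again all KO libraries were above all HPg libraries, and the averaged log2 fold change was 0.97 (SE 0.15, edgeR adjusted p = 0.00236). Both calls held without each library in turn. The median over tested genes of chromosome 16, which holds Parp9, Parp14, Mx1 and Mx2, was -0.04.

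The guanylate-binding proteins, GTPases that attack the vacuoles of intracellular microbes, had few reads. Gbp2 had 0.382 ± 0.11 CPM in KO with PMA, 0.204 ± 0.128 in HPg with PMA, 0.315 ± 0.048 in KO and 0.178 ± 0.0179 in HPg (SD, n = 3 each). KO was higher in all 6 pairs, with an averaged log2 fold change of 0.86 (SE 0.33, edgeR adjusted p = 0.12, and 0.0535 with the block). Gbp3 was counted 12 times in KO with PMA, 35 times in HPg with PMA, 53 times in KO and 14 times in HPg, and its averaged edgeR adjusted p was 0.823. Genes of this cluster are near-identical in part, so their counts are uncertain.

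In class I antigen processing, 1 of 5 members tested, Tap1, was called higher in KO by the averaged edgeR test (background 5.57%). Tap1 had 8.43, 6.34 and 4.84 CPM in KO with PMA, against 2.66, 4.45 and 3.08 CPM in HPg with PMA. It had 6.53, 5.4 and 6.72 CPM in KO, against 3.42, 4.3 and 2.92 CPM in HPg. The lowest KO library, at 4.84 CPM, was above the highest HPg library, at 4.45 CPM. The averaged log2 fold change of Tap1 was 0.88 (SE 0.18, edgeR adjusted p = 0.00946), and the call held without each of the 12 libraries in turn. The median over tested genes of chromosome 17, which holds Tap1, Tap2, Tapbp and Psmb8, was -0.07.

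Tap2 had 6.39, 7.33 and 5.62 CPM in KO with PMA, against 3, 5.69 and 2.87 CPM in HPg with PMA. It had 4.35, 8.39 and 6.37 CPM in KO, against 3.35, 5.6 and 3.38 CPM in HPg. Library 2 was the highest in every group, so that KO and HPg overlapped, while all 6 pairs were positive. The averaged log2 fold change of Tap2 was 0.69 (SE 0.22), with an edgeR adjusted p of 0.0696 and 0.000665 with the block. For Nlrc5, the transactivator of class I genes, the averaged log2 fold change was 0.67 (SE 0.32), with an edgeR adjusted p of 0.207 and 0.00875 with the block. Tapbp, with 119 ± 15.1 CPM in KO with PMA, 94.3 ± 23.2 in HPg with PMA, 115 ± 16 in KO and 108 ± 25.8 in HPg, had an averaged log2 fold change of 0.22 (SE 0.14, edgeR adjusted p = 0.371, and 0.0173 with the block). Tap2 and Tapbp share 18.5% and 24.9% of their exon length with genes on the other strand.

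B2m had 116 ± 20.1 CPM in KO with PMA, 130 ± 42.4 in HPg with PMA, 112 ± 13.4 in KO and 131 ± 24.9 in HPg (SD, n = 3 each). Its averaged log2 fold change was -0.2 (SE 0.16, edgeR adjusted p = 0.493, and 0.227 with the block), within the spread of the libraries. Psmb8, the immunoproteasome subunit LMP7, had 0 to 2 counts per library and was not tested.

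**Figure D3:**
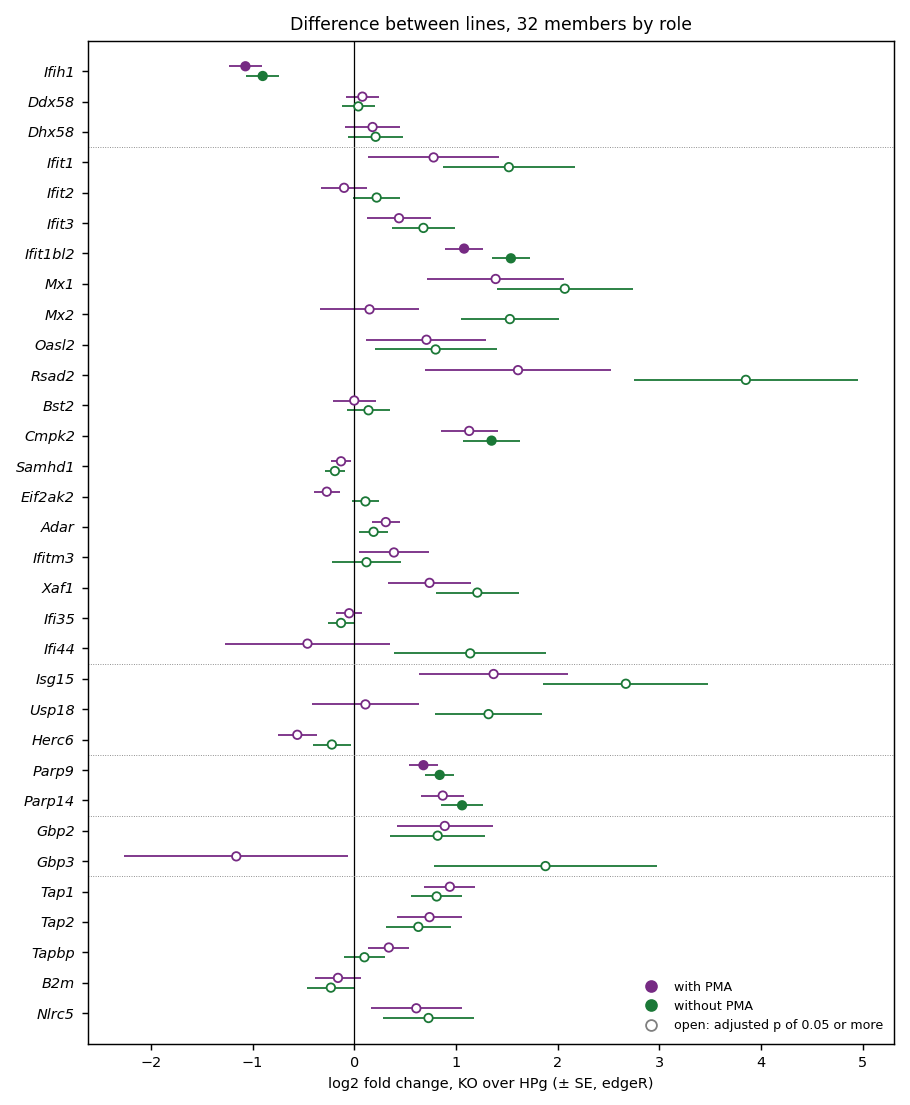
Points give the log2 fold change of KO over HPg for 32 members, ordered by role, with PMA (purple) and without (green); bars are SE from edgeR and filled points have an adjusted p below 0.05. Most points lie right of 0, Ifih1 lies left of it near -1 in both, and low-count members such as Rsad2 and Gbp3 have the widest bars.

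With PMA, 3 members were called between KO and HPg by edgeR, against 2.47% of all genes, with 2 higher (background 1.29%) and 1 lower (1.18%). These were Ifit1bl2 (log2 fold change 1.08, SE 0.19, adjusted p = 0.0146), Parp9 (0.68, SE 0.14, 0.032) and, lower in KO, Ifih1 (-1.07, SE 0.16, 0.00654). The edgeR adjusted p was 0.0565 for Cmpk2, 0.0535 for Parp14 and 0.0673 for Tap1, each with KO libraries above all HPg libraries. With the replicate block all 3 were called, with adjusted p of 5.46e-05 for Cmpk2, 0.00346 for Parp14 and 0.00965 for Tap1. In all, KO libraries with PMA lay wholly above HPg libraries with PMA for 6 members (background 12.5%) and wholly below for 3 (12.4%), against 25% of all genes in either direction. The replicate block gave 11 calls in this comparison, against 18.6% of all genes. The others gained were Ifit3 (adjusted p = 0.0315 with the block), Adar (0.0291), Tap2 (0.00608) and Tapbp (0.0198), all higher in KO, and Herc6 (0.0329), which was lower. DESeq2 called 6, against 7.5%. The median log2 fold change was 0.36 over the members and 0.01 over all genes, with 22 of 32 members positive, against 51.3% of all genes.

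Without PMA, 5 members were called between KO and HPg by edgeR, against 1.32% of all genes, with 4 higher (background 0.806%) and 1 lower (0.511%). Ifit1bl2 (log2 fold change 1.54, SE 0.19, adjusted p = 0.00276), Cmpk2 (1.35, SE 0.28, 0.0402), Parp9 (0.84, SE 0.14, 0.0176) and Parp14 (1.06, SE 0.21, 0.0313) were higher in KO. Ifih1 was lower (-0.9, SE 0.16, 0.0201). KO libraries lay wholly above HPg libraries for 13 members (background 9.57%) and wholly below for 1 (8.95%), against 18.5% of all genes in either direction. The 13 included Mx1, Mx2, Rsad2, Isg15, Usp18, Xaf1, Gbp2, Gbp3 and Tap1, none of which passed the edgeR test without the block in this comparison. With the replicate block 4 of these 9 were called, with adjusted p of 0.0114 for Rsad2, 0.0175 for Isg15, 0.00715 for Xaf1 and 0.0232 for Tap1. The block also called Ifit1 (0.00648), Ifit3 (0.00252) and Tap2 (0.0274), all higher in KO, which made 12 calls, against 12.5% of all genes. DESeq2 gave 9, against 4.66%. In a fit of these 6 libraries alone, edgeR called 0 members, against 0.0752% of all genes, with 10 members at an unadjusted p below 0.05, against 12.2% of all genes. The members' median log2 fold change was 0.76, against 0.01 over all genes, and 27 of 32 were positive, against 51.3% of all genes.

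Single libraries mattered for these calls. Without PMA the call of Ifit1bl2 held without each of the 6 libraries, while that of Cmpk2 was lost without any of them (adjusted p of 0.0526 to 0.155). Ifih1 and Parp9 lost theirs without KO 1, KO 3, HPg 1 or HPg 3, with adjusted p of up to 0.103 for each. Parp14 lost its call without KO 2, KO 3, HPg 1 or HPg 3, with an adjusted p of up to 0.154. With PMA the call of Ifih1 held without each library. Ifit1bl2 lost it without the PMA-treated KO 1, KO 3, HPg 1 or HPg 3 (adjusted p of up to 0.0821). Parp9 held its call without the PMA-treated HPg 2 and lost it without each of the other 5 (up to 0.143).

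**Figure D4:**
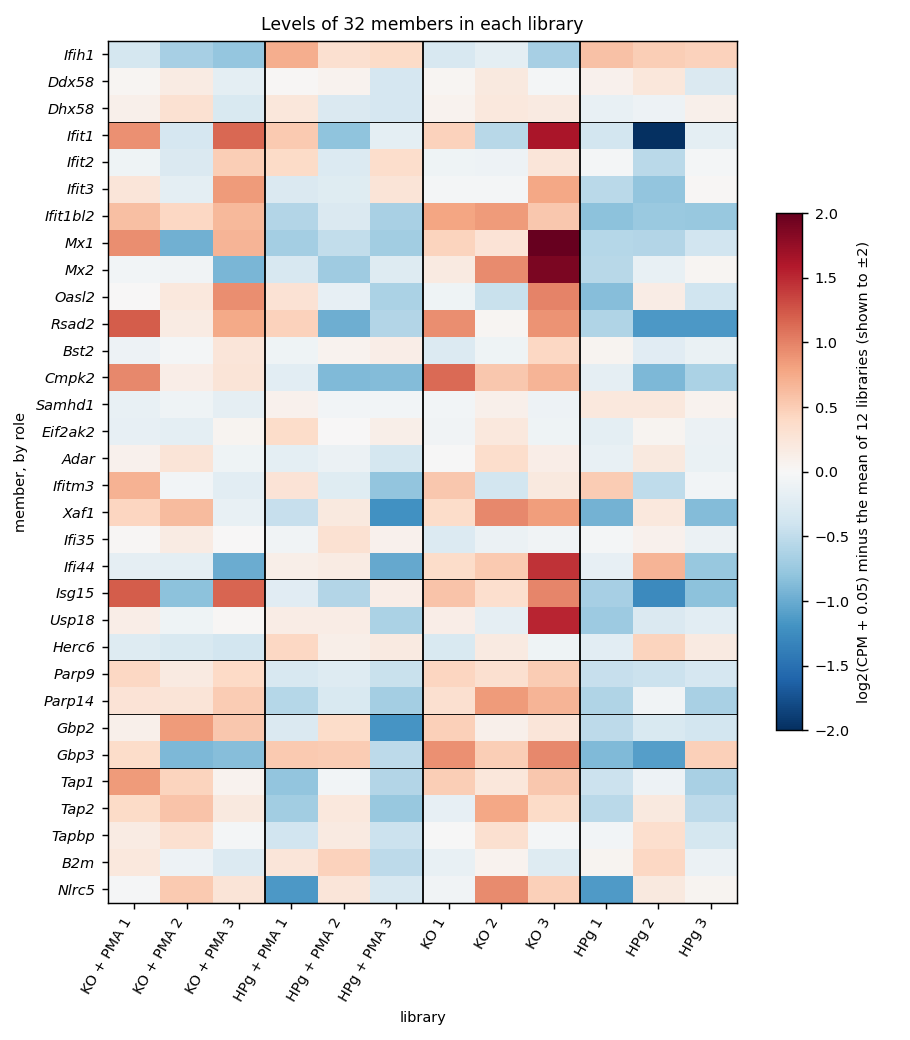
Colour gives log2(CPM + 0.05) of 32 members in each of the 12 libraries minus the member's mean over libraries, shown to ±2; columns run from KO with PMA to HPg, and horizontal lines part the roles. The KO library 3 is the reddest column for Ifit1, Mx1, Mx2, Ifi44 and Usp18, and the second libraries of the HPg groups are redder than their neighbours for Tap2, Tapbp and B2m.

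The library with the highest level was not the same for all members. Some members had few counts, and how far counting error enters these ranks was not tested. In untreated KO cells, 9 of 17 effectors were highest in library 3, among them Ifit1, Mx1, Mx2 and Ifi44, whereas 4 of 5 antigen-processing members were highest in library 2. All 5 antigen-processing members were highest in library 2 in HPg with PMA and again in HPg. For the effectors, 6, 4 and 7 were highest in libraries 1, 2 and 3 of KO with PMA, 8, 6 and 3 in those of HPg with PMA, and 5, 8 and 4 in those of HPg. The same counts were not made over all genes, so whether the members differ from other genes in this was not tested. Without the second libraries of all groups, edgeR called 7 members with PMA (8.17% of all genes in that fit), 9 without PMA (3.56%) and 13 averaged over both treatments (18.2%).

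The second question was whether 30 min of PMA moved these genes. In KO cells no member was called between PMA and untreated by edgeR, against 4.44% of all genes, with 2 members, Mx2 and Ifi44, at an unadjusted p below 0.05, as were 15.9% of all genes. Mx2 had 0.288, 0.286 and 0.138 CPM in KO with PMA, against 0.349, 0.632 and 1.25 CPM in KO, and the groups did not overlap. Its log2 fold change was -1.64 (SE 0.48, edgeR adjusted p = 0.083). Mx2 was the 1 member called by DESeq2 (7.69% of all genes) and the 1 called with the replicate block (adjusted p = 0.0499, 13.4% of all genes), lower with PMA in both. Ifi44 had 0.0698, 0.0678 and 0.0184 CPM in KO with PMA, against 0.125, 0.144 and 0.32 CPM in KO, with a log2 fold change of -1.89 (SE 0.79, edgeR adjusted p = 0.255). The KO library 3 was the highest untreated library for both genes.

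In HPg cells no member was called by edgeR between PMA and untreated, against 3.45% of all genes, and none was at an unadjusted p below 0.05, as were 17.4% of all genes. DESeq2 called none (7.34% of all genes), and with the replicate block none was called either (14.8%). The edgeR adjusted p was 0.345 or more for every member. Rsad2 had the largest log2 fold change, 2.38 (SE 1.2), which rests on 20 counts with PMA and 3 without. The median over members was -0.09 in KO and 0.02 in HPg, against -0.02 over all genes in each.

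The interaction of line and PMA, which asks whether PMA acted differently in KO than in HPg, gave 0 calls among the members and 0% among all genes by edgeR. No member reached an unadjusted p below 0.05, as 1.97% of all genes did, and DESeq2 called none of them (0.00602% of all genes). The replicate block also gave 0 and 0%, with a lowest adjusted p of 0.646. Gbp3 had an interaction of -3.04 on the log2 scale (SE 1.5, unadjusted p = 0.0695) and Mx2 one of -1.38 (SE 0.68, unadjusted p = 0.0643). The SE of these terms, up to 1.5 for low-count members, bounds what could be seen. The comparisons with PMA share their KO or HPg libraries with those between the lines, and the values are therefore set side by side.

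**Figure D5:**
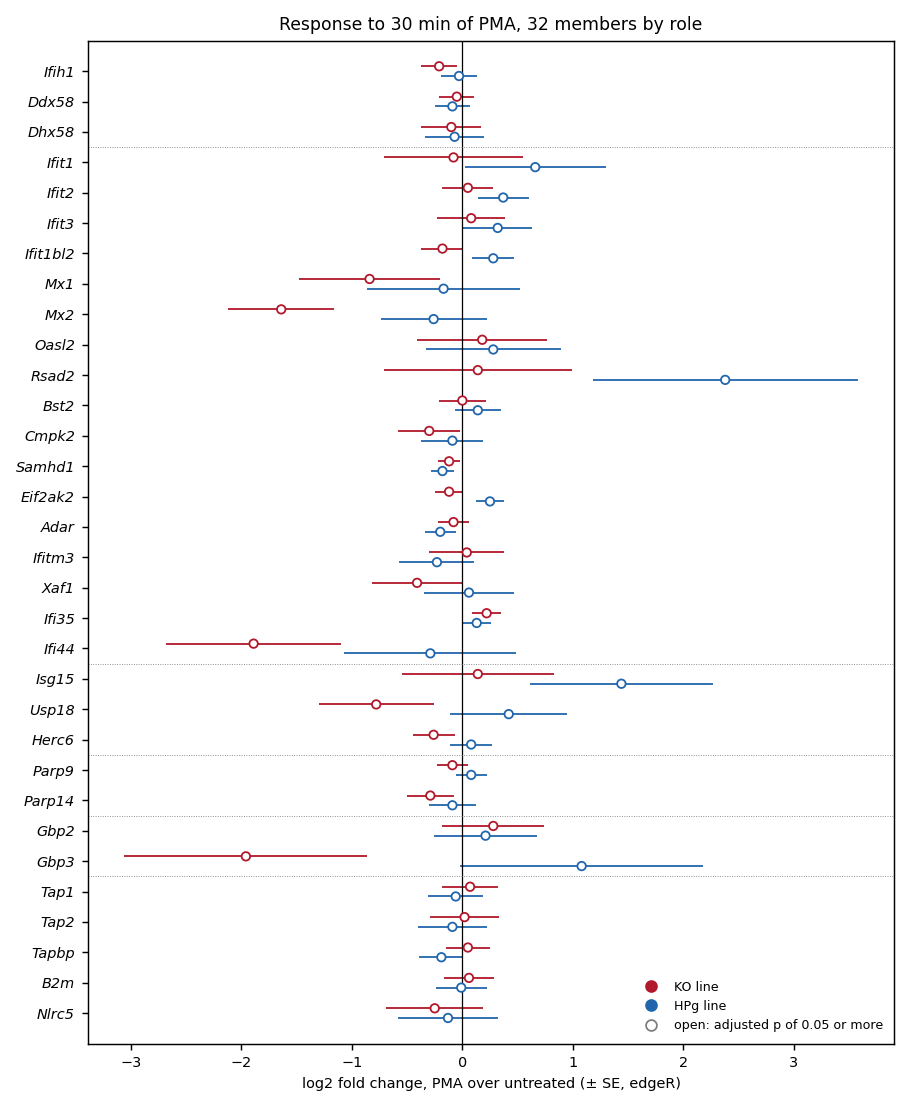
Points give the log2 fold change of PMA over untreated for 32 members in KO (red) and HPg (blue), with SE from edgeR; all points are open because no adjusted p was below 0.05. Members with many reads lie near 0 in both lines, and Mx2, Ifi44 and Gbp3 lie left of -1 in KO.

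Upstream genes of the pathway were read from lists of related genes. The lists, too, were chosen with earlier results of these data known, so their counts describe them and are not independent evidence. Of 6 interferon receptor genes tested, 3 were called higher in KO averaged over both treatments and none lower by edgeR. In this averaged comparison 5.57% of all genes were called higher and 4.85% lower, and these shares are the background of each list that follows. Ifnar1 differed by 0.35 on the log2 scale (SE 0.07, edgeR adjusted p = 0.00966) and Ifnar2 by 0.31 (SE 0.09, 0.047). Ifnlr1, the receptor chain for type III interferon, differed by 3.42 (SE 0.62, 0.00532) but had 105 counts in all 12 libraries. Of 17 interferon signalling genes, 2 were called higher and none lower. Irf9, the DNA-binding part of the interferon-activated complex, had 22.5, 19.2 and 18.5 CPM in KO with PMA, against 11, 13.5 and 10.6 CPM in HPg with PMA. It had 21.5, 19 and 21.6 CPM in KO, against 9.94, 12.7 and 13 CPM in HPg. KO and HPg libraries did not overlap, and the log2 fold change of Irf9 was 0.79 (SE 0.1, edgeR adjusted p = 0.000817). The median over tested genes of chromosome 14, which holds Irf9, was 0.27 with PMA and 0.31 without. How far this shift of the chromosome enters the value of Irf9 was not tested. Stat3 differed by 0.35 (SE 0.1, edgeR adjusted p = 0.0416).

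Of 15 genes of nucleic acid sensing, 2 were called higher in KO and 1 lower by the averaged edgeR test. The kinase gene Ikbke was higher, with a log2 fold change of 0.55 (SE 0.11, edgeR adjusted p = 0.00761). Tbk1, whose kinase activates IRF3, was lower, with -0.46 (SE 0.077, 0.0037). The median over tested genes of chromosome 10, which holds Tbk1, was -0.24 with PMA and -0.28 without. Among 14 MHC class I chains and loading factors, H2-Q4 (0.99, SE 0.16, adjusted p = 0.00251) and H2-M3 (0.97, SE 0.2, 0.0121) were called, both higher. Reads of H2-Q4 can be divided with other class I genes of near-identical sequence. Of 8 proteasome genes, the activator subunit Psme1 was called higher (0.64, SE 0.15, edgeR adjusted p = 0.0228). Psme1 lies on chromosome 14, as Irf9 does. Of 63 further interferon-stimulated genes, 11 were called higher and 2 lower, against 5.57% and 4.85% of all genes. The 6 with the lowest p were Ifit1bl1 (0.8), Apol9a (1.09), Casp4 (1.77) and Dtx3l (0.66), which were higher, and Trim26 (-0.38) and Tdrd7 (-0.42), which were lower. With the replicate block the counts higher and lower were 4 and 1 for receptors, 5 and 2 for signalling, 4 and 2 for sensing, 4 and 1 for class I chains, 2 and 1 for the proteasome and 20 and 5 for further targets, against 15.2% higher and 14.1% lower of all genes. Median log2 fold changes of these lists were 0.33, 0.05, 0.07, 0.15, -0.05 and 0.18 in the same order, against 0.01 over all genes.

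With PMA, edgeR called Irf9 (0.78) of 17 signalling genes and H2-Q4 (1.04) of 14 class I chains higher in KO than in HPg. It also called Ifnlr1 (3.9) of 6 receptor genes higher and Tbk1 (-0.49) of 15 sensing genes lower. None of 8 proteasome genes or 63 further targets was called. Over all genes 1.29% were called higher and 1.18% lower. Without PMA, Irf9 (0.8) of 17 signalling genes and Casp4 (2.75) of 63 further targets were called, both higher. The other lists held no call. The shares over all genes were 0.806% higher and 0.511% lower. PMA over untreated gave calls in some of these lists and none among the 32 members. The shares over all genes were 4.44% in KO and 3.45% in HPg. In KO cells 5 of 17 signalling genes rose (Irf1, Ptpn2, Socs1, Stat3 and Socs3). So did 1 of 15 sensing genes (Tbk1) and 2 of 63 further targets (Helz2 and Cxcl10). In HPg cells 2 of 17 signalling genes (Irf1 and Ptpn2) and 1 of 15 sensing genes (Tbk1) rose. Of 63 further targets, 4 rose (Ifi204, Ifi207, Cxcl10 and Casp4) and 1 fell (Pml). The receptor, class I chain and proteasome lists held no call in either line. Irf1, a transcription factor known as an early target of many stimuli, had 177, 203 and 304 CPM in KO with PMA, against 38.7, 31.6 and 38.7 CPM in KO. It had 75.3, 133 and 168 CPM in HPg with PMA, against 31.9, 27.2 and 33.1 CPM in HPg. The groups were far apart in both lines, with log2 fold changes of 2.65 in KO (SE 0.27, edgeR adjusted p = 0.00012) and 2.03 in HPg (SE 0.27, adjusted p = 0.0012).

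Markers of other cell types moved with the line in part. In bulk RNA, fewer cells of a type and less RNA per cell cannot be told apart. Summed over 20 blood and immune markers, levels were 6.7–8.25 CPM in KO with PMA, 4.76–6.88 in HPg with PMA, 5.01–5.59 in KO and 3.36–4.39 in HPg. Of these 20 markers, 16 stayed below 1 CPM in every library, Cd3g and Siglech were at 0 in all 12, and Ptprc, the marker of all leukocytes, was at or below 0.0862 CPM. Lyz2, a lysozyme gene of myeloid cells, was the 1 of 9 tested that was called in the averaged comparison (0.96, SE 0.26, edgeR adjusted p = 0.0378). Summed over 10 epithelial markers, levels were 15.8–17.3 CPM in KO with PMA, 9.18–9.59 in HPg with PMA, 16.5–18.6 in KO and 10.3–11.9 in HPg. Dsp (2.73, edgeR adjusted p = 0.00157) and Krt19 (0.73, 0.019) were called of 6 tested, while Epcam was at or below 0.0827 CPM. Summed over 9 endothelial markers, levels were 7.7–9.68 CPM in KO with PMA, 5.08–9.88 in HPg with PMA, 6.85–10.7 in KO and 5.47–11.4 in HPg, and Vwf was called of 5 tested (1.82, edgeR adjusted p = 0.00384). The part of these differences in the results on the members was not tested.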

How the data were processed

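Per the labels' protocols, libraries were directional and made from total RNA after removal of ribosomal RNA. The submitters' processing notes name featureCounts 1.4.6-p3, STAR 2.5.0a, Subread, cutadapt 1.11 and build mm9. The authors deposited raw counts for each gene, with no normalization. Which annotation and strand setting the counting used is not stated, so genes that overlap another are uncertain. No coordinates of the files are printed.

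All 12 libraries entered 1 edgeR quasi-likelihood fit (edgeR 4.0.16, R 4.3.3, robust, TMM factors) with a coefficient per group. Genes were kept by filterByExpr (minimum count 10, minimum total 15). Adjustment was by Benjamini-Hochberg over 16630 genes, and an adjusted p below 0.05 is called. The design cannot give a 3 against 3 permutation p below 0.1. SE is the log2 fold change divided by the root of its F. The fit without the block was run on simulated counts of independent libraries, for the comparisons of lines only. The block, PMA and interaction tests were not checked in this way.

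Deviations of same-numbered libraries of different groups correlated at 0.128 to 0.521 in 18 pairs, and those of different numbers at -0.487 to 0.156 in 36 pairs. The numbers therefore pair the samples, and values with that number as a block stand beside each member whose call differs. For the further lists the block is given as counts. No pair of libraries within a group agreed within sampling noise (chi-square per degree of freedom 82.2 to 547).

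Alternatives were DESeq2 1.42.0, other scalings, other filters, only the compared groups, and single or second libraries left out. Named are Cbx3, all members and, of each further list, the genes called (the 6 with the lowest p where more were called), except 1 called gene that is not reported here. The members and lists were chosen with earlier results of these data known. Intervals cover counting error only.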

Additional observations from a re-analysis of the deposited data

How the results depend on the processing

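No called member reversed its direction under any alternative run. Of 3136 values of single members under the alternatives, 2957 stayed called, or stayed uncalled and moved by no more than their main SE. Of the rest, 62 gained a call, 58 lost one and 59 stayed uncalled but moved by more than that SE. Most of the 3136 values were uncalled in the main fit, which called 0 members for PMA or the interaction. Only the main calls between the lines could be lost, so the 2957 do not measure how stable those calls are. Counts of called members between KO and HPg were 3 with PMA, 5 without and 9 averaged. They stayed within 1.5 times of these under RLE, upper-quartile or library-size scaling, with no filter and with a filter of 1 CPM. That filter, set for 3 libraries, left Mx1, Rsad2 and Isg15 untested. They reached at most 0.818, 0.209 and 0.279 CPM. The share of all genes called was 1.46% (no filter) to 3.74% (1 CPM) with PMA. In the same order it was 0.859% to 1.78% without PMA and 5.69% to 12.2% averaged. DESeq2 called 6 members with PMA, 9 without and 1 for PMA in KO. The replicate block called 11 with PMA, 12 without, 17 averaged and 1 for PMA in KO; it changed no call for PMA in HPg or for the interaction. Without the second libraries 7 members were called with PMA (8.17% of all genes) and 9 without (3.56%). In edgeR fits of the compared groups alone 0 were called without PMA (0.0752% of all genes), with 10 at an unadjusted p below 0.05 (12.2%), where DESeq2 on all groups called 9. Leaving out single libraries gave 1 to 4 calls with PMA, against 0.352% to 3.36% of all genes, and 1 to 4 without (0.271% to 1.94%). It gave 6 to 11 averaged (5.36% to 13%) and 0 to 1 for PMA in KO (1.74% to 3.55%). It gave 0 for PMA in HPg (1.43% to 1.95%) and 0 for the interaction (0% to 0.00589%). The cause of these shifts was not tested. Library-size scaling moved the median of all genes for PMA in KO to -0.14, against -0.02. Rsad2, Isg15 and Gbp3 rest on 3 to 68 counts per group; how far depth limits their calls was not tested.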

Other observations

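Oas1a, an oligoadenylate synthetase whose window holds 2 overlapping ISRE matches, did not pass the filter and entered no comparison. Its reads summed to 18 in KO with PMA, 24 in HPg with PMA, 35 in KO and 6 in HPg. Trim25 summed to 4 in KO with PMA, 2 in HPg with PMA, 1 in KO and 3 in HPg, and Psmb8 to 3, 2, 3 and 0 in the same order of groups.

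Gbp3 had opposite ratios with and without PMA. Its summed counts, divided by TMM-scaled library sizes, gave a ratio of KO over HPg of 0.419 with PMA (95% exact interval 0.198–0.826, counting error only) and 3.65 without (2–7.13). In single libraries it had 0.0872, 0.00753 and 0.00919 CPM in KO with PMA, against 0.103, 0.102 and 0.0245 CPM in HPg with PMA. Without PMA it had 0.152, 0.101 and 0.157 CPM in KO, against 0.0079, 0 and 0.0987 CPM in HPg. Between libraries the interaction of line and PMA had an unadjusted p of 0.0695 by edgeR and did not pass the adjustment.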
